A study of Mus musculus with 15 samples.

Results

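Gene expression was compared between untreated GL261 glioma and healthy mouse brain, 3 RNA sequencing libraries each, which are 6 of the 15 samples of the series. They were chosen by sample title. GL261 is a mouse glioma line that grows in the brains of C57BL/6 mice, the strain labelled for every library here, and a tumor library holds the grafted cells together with the host cells among them. The series asks what blocking VEGF-A, a growth factor for blood vessels, does to such tumors. The group used here had the 0 µg dose, and the other tumor groups were dosed with 50, 100 or 200 µg of an antibody to VEGF-A, B20.4.1.1, every 3 days starting on day 10. Mice were perfused with saline before the tumors were taken, and libraries were made from total RNA of frozen tissue. The labels say that samples are individual and name no age, sex, brain region or day of collection, so p-values measure only the spread between these samples, which may be technical in part. Untreated tumor replicate 3 carries an agent tag of 50 µg per dose that disagrees with its title and source name. It was kept by its title, and values without it are given where they change a result.

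A glioma displaces brain tissue. Neurons and glia of the healthy brain spend much of their transcription on ion channels, transmitter receptors, vesicle release and myelin, whereas a dividing graft spends it on DNA replication, mitosis and growth, and the immune cells drawn to it add antigen presentation and interferon-driven genes. Many protein families hold members of each kind, a form used mainly by neurons and a form used by most cells, so a family can split when tissue is replaced by tumor. In such bulk libraries, fewer cells of a type and less RNA per cell cannot be told apart.

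Estimated depth was 19.1, 14.9 and 52 M fragments in brain 1 to 3 and 17.1 to 18.2 M in the 3 tumors, which limits what can be said of low genes. A listing at 0 can also mean that no transcript was assembled: Dnm2, a dynamin of nearly all cells, is at 0 in brain 3 against 16 and 17.3 FPKM in brain 1 and 2. Values are FPKM (fragments per kilobase of transcript, scaled to the mapped fragments of the library), so levels of different genes are on a scale per length. Genes whose 6 values averaged 1 FPKM or more, 15130 in all, were tested with limma, and those with an adjusted p below 0.05 are termed called. Of these, 62.7% were called, 33.6% higher and 29.1% lower in tumor, and in 70% the 3 tumor values lay all above or all below the 3 brain values. A count for a family has to be read against these shares. The first principal component held 84.5% of the variance and separated the groups, and brain 3 stood apart from the other brains on the second, which held 6.1%. Fold changes are log2 differences of FPKM + 1, tumor minus brain, and their median over all genes was 0.13. Dividing libraries by median-of-ratios size factors moved that median to -0.11 and the share of higher genes among those called from 53.6% to 44.8%. A gene is named as uncertain where its transcripts overlap or are joined to those of another gene or where it has near-identical copies, which held for 5571 of the genes tested. Where the FPKM of a gene's transcripts were summed without weighting by the exonic length covered, the named genes Actl6a, Eif4g3, Ephb3, Fcgrt, Hk1, Hk2, Map6, Mycl, Myrf, Pdgfra, Pgd, Snap23, Tlr3, Tlr13, Vcan and Wasf2 kept their direction but were no longer called.

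The tissue labels were checked against marker lists. All 12 tested neuron markers were lower in tumor, and their summed level was 2653 to 3552 FPKM in brain and 47.3 to 72.8 FPKM in tumor. Of 12 astrocyte markers 11 were lower (583 to 690 against 83.0 to 145 FPKM), and of 12 markers of mature oligodendrocytes 8 were lower, with Myrf, a transcription factor of myelination, higher. Markers of oligodendrocyte precursors went the other way in part, with 6 of 10 higher, 2 lower and a summed level of 151 to 215 FPKM in brain against 1003 to 1389 FPKM in tumor. Median-of-ratios scaling and the unweighted sum each left 4 of the 10 higher. Monocyte and macrophage markers were higher for 12 of 13 genes (28.0 to 28.6 against 213 to 418 FPKM). Homeostatic microglia markers split, with 3 of 11 higher and 7 lower, or 4 lower with the unweighted sum. Endothelial markers were mostly not called, with 2 of 12 higher and 1 lower. Of 21 T and NK cell genes 8 were tested, and 5 of these were higher. Among the 13 not tested, Cd3d, Cd5 and Ctla4 were listed at 0 in all 6 libraries. Zap70 read 0, 1.11 and 0.923 FPKM in brain and 0, 0.517 and 0 FPKM in tumor. The rest, such as Cd3e and Klrk1, were listed at 0 in every brain and above 0 in a tumor, at most at 2.38 FPKM. The neutrophil genes S100a8 and S100a9 were listed at 0 throughout, as were the other members of that list apart from Csf3r.

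The 3 brain libraries differed in the level of regional markers. Genes of the striatum, a deep forebrain region rich in dopamine receptors, summed to 329, 900 and 141 FPKM in brain 1 to 3, and each of the 9 was highest in brain 2. Of the 4405 genes lower in tumor, 28.5% were highest in that library. Ttr, the main product of the choroid plexus, read 565, 11.3 and 1259 FPKM in brain and 49.6, 44.2 and 3.54 FPKM in tumor. Through brain 2 the groups overlapped and the gene was not called, though it was called without brain 2 (-5.28, limma adjusted p 0.0138). Dissection was not described in the labels, and the part it plays in any result was not tested. Drd1 and Drd2, the main dopamine receptors of the striatum, were called lower (fold change -3.23 and -3.48, limma adjusted p 0.0026 and 0.0043) with 23.8 and 34.9 FPKM in brain 2 against 5 and 6.33 FPKM in brain 1.

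**Figure D1:**
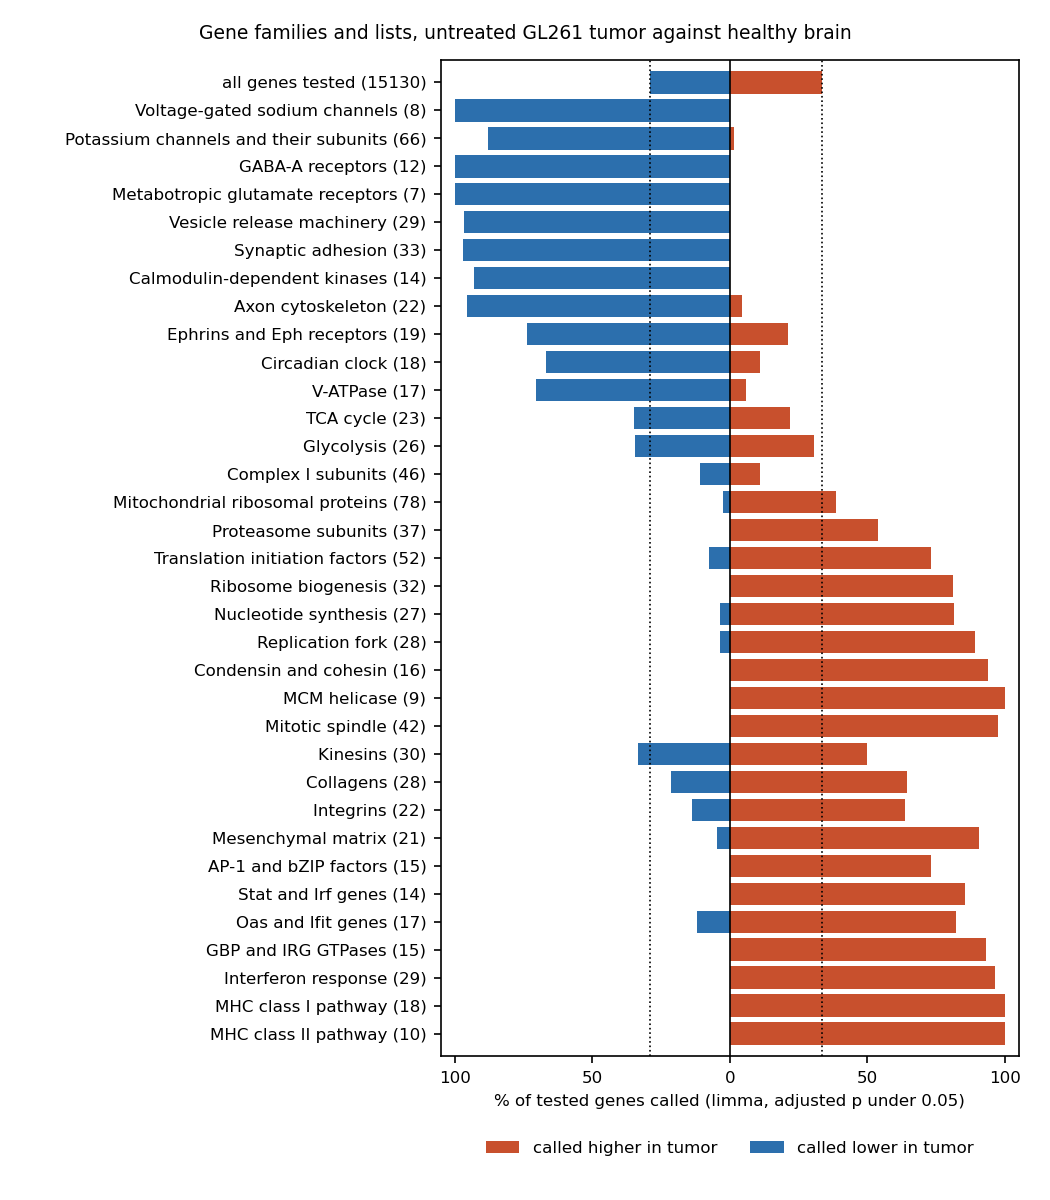
Share of the tested genes of 34 families and lists that limma called higher (right, red) or lower (left, blue) in untreated tumor than in healthy brain, with the number of tested genes in brackets. Dotted lines mark the shares over all 15130 genes, 33.6% higher and 29.1% lower. Channel, receptor and release genes lie on the left, division, interferon and antigen presentation genes on the right, and complex I stays below both lines.

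Ion channels of excitable cells were lower almost as whole families. All 8 tested voltage-gated sodium channel genes, which start and carry the action potential, were lower, with a summed level of 372 to 483 FPKM in brain and 7.25 to 10.7 FPKM in tumor. Scn2b, an accessory subunit, read 44.4, 55.2 and 46 FPKM in brain 1 to 3 and was listed at 0 in all 3 tumors. Of 66 potassium channel genes and subunits 58 were lower and 1 was higher, and the median fold change was -3.05. Kcnip2, which modifies fast potassium currents, fell from 60.2, 87.2 and 60.1 FPKM to a listing at 0 in every tumor (-6.11, limma adjusted p 6.3e-06).

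The exception among the potassium channels was Kcnn4. It encodes the calcium-activated channel of intermediate conductance, best known from lymphocytes, red cells and migrating cells. It was listed at 0 in brain 1 and 2 and at 0.392 FPKM in brain 3, and rose to 19.5, 21.3 and 43 FPKM in tumor 1 to 3 (4.61, SE 0.33, limma adjusted p 4.5e-05). No tumor library overlapped a brain library.

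Voltage-gated calcium channel genes were lower for 19 of 21, with Cacng3 (34.8, 45.3 and 29.4 FPKM in brain, listed at 0 in tumor) the furthest down among genes that are not uncertain.

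Receptors for fast and slow transmitters followed. Of 19 GABA-A receptor subunits 12 were tested, and all 12 were lower. Their summed level dropped from 282 to 335 FPKM in brain to 0.152 to 1.29 FPKM in tumor. Ionotropic glutamate receptors were lower for 16 of 18. Metabotropic ones were lower for 7 of 7 tested, with a summed level of 0 to 0.172 FPKM in tumor. The tested GABA-A and metabotropic genes passed the filter of a mean of 1 FPKM only through the brains. Their shared direction was therefore set by that filter. The AMPA receptor subunit Gria2, which keeps the channel closed to calcium, fell by 5.52 on the log2 scale from 63.3, 67.8 and 42.4 FPKM. The kainate receptor subunit Grik3 was not called (9.19, 11.2 and 6.16 against 11.1, 7.07 and 10.6 FPKM). Acetylcholine receptors were lower for 7 of 8, led by the muscarinic receptor Chrm1 (24.2, 27.5 and 22.5 FPKM in brain, listed at 0 in tumor).

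Monoamine receptors were lower for 13 of 15, again with a single exception. Adra1b, an alpha-1 adrenergic receptor that signals through calcium, rose from 7.57, 5 and 3.34 FPKM to 26.6, 22.6 and 26 FPKM (2.10, limma adjusted p 0.00056). Each tumor value was above each brain value.

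The vesicle release machinery was lower for 28 of 29 genes, from a summed 3080 to 4076 FPKM to 120 to 137 FPKM. Cplx1, a complexin that clamps vesicle fusion, read 270, 234 and 233 FPKM in brain and 1.71, 1.08 and 1.28 FPKM in tumor. Among the synaptotagmins, the calcium sensors of fusion, 12 of 15 were lower, and Syt4 was the only one higher, though it is uncertain (47, 48.5 and 56.9 FPKM in brain, 283, 327 and 283 FPKM in tumor). Neuropeptides were lower for 14 of 17, and their brain levels were uneven: Sst, the somatostatin of a class of inhibitory neurons, read 421, 399 and 51.6 FPKM in brain 1 to 3 and 3.65, 0 and 0 FPKM in tumor. Npy, released by an overlapping class, fell from 180, 92.7 and 84 FPKM to a listing at 0.

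On the receiving side, 19 of 20 postsynaptic scaffold genes and 32 of 33 synaptic adhesion genes were lower. The uncertain Homer3 was the scaffold gene called higher. Signaling proteins tuned to neurons went with them. Calmodulin-dependent kinases were lower for 13 of 14, with Camk2n1, a small inhibitor of CaMKII, at 804, 591 and 611 FPKM in brain and 9.41, 7.33 and 4.76 FPKM in tumor. RGS proteins, which switch G proteins off, were lower for 12 of 16 and phosphodiesterases for 11 of 16. G protein subunits had 10 higher and 13 lower of 27 (37% and 48%, against 33.6% and 29.1% over all genes). Median-of-ratios scaling left 6 G protein subunits higher and the unweighted sum 4.

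Guidance receptors split by member. Of 19 ephrins and Eph receptors, contact signals that sort cells and steer axons, 14 were lower and 4 higher. Epha4, a receptor of axons and astrocytes, read 23.9, 20.6 and 40 FPKM in brain and was listed at 0 in tumor, and Epha5 likewise fell from 9.59, 12.7 and 14.7 FPKM to 0. Ephb4, best known as a receptor of veins, rose from 2.21, 1.55 and 1.11 FPKM to 16.7, 28.1 and 36.9 FPKM (3.38, limma adjusted p 0.00014). The other higher members were Epha2, Efna1 and Ephb3. Epha2 rested on uneven tumors, with 2.37 FPKM in tumor 1 against 16.2 and 24.3 FPKM in tumor 2 and 3 (3.05, limma adjusted p 0.0091).

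Proteins of the axon showed the largest losses among the cytoskeletal lists, with 21 of 22 genes lower and a median of -4.15. Stmn3, a stathmin that binds free tubulin, read 464, 384 and 313 FPKM in brain and 3.68, 1.77 and 0 FPKM in tumor. Map6, which stabilizes microtubules against cold, was the member called higher, by 0.76, from 18.8, 18.3 and 12.9 FPKM to 22.8, 35.2 and 29 FPKM. That call was lost under median-of-ratios scaling (0.51) and without brain 3, tumor 2 or tumor 3 (0.60, 0.62 and 0.75).

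To ask whether protein families were exchanged rather than lost, 48 textbook pairs of a brain form and a more general form of the same protein were compared within each library as ratios of FPKM + 1. The added 1 holds such ratios back where a form is near 0. The brain forms were picked for being known as brain forms, so their loss is a description. In 46 pairs the ratio of general to brain form was higher in all 3 tumors than in all 3 brains, in none was it lower in all 3, and the median shift was 4.07 on the log2 scale. The smallest p an exact permutation test of 3 against 3 libraries can give is 0.1, so no pair can pass a threshold of 0.05. Over single genes, the background share without overlap was 70%. The general forms themselves were higher in 23 pairs and lower in 7, and in 21 pairs both genes were called in opposite directions. In 28 pairs the brain form was above the general form in every brain library and below it in every tumor library.

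**Figure D2:**
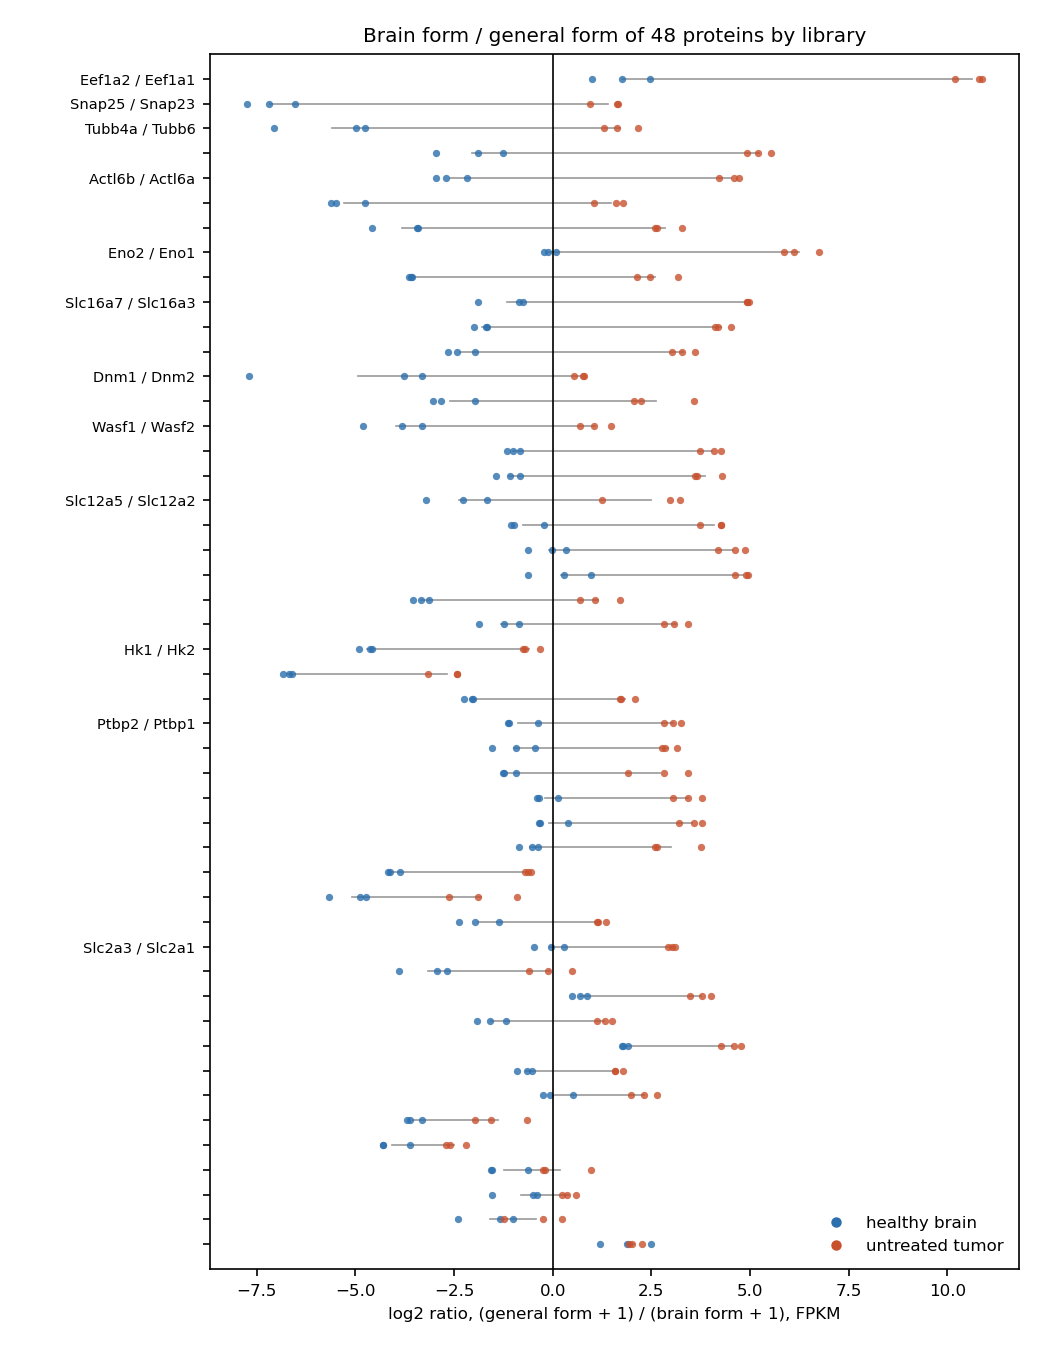
Log2 ratio of general form to brain form (FPKM + 1 each) in every library for 48 pairs, brain form named first, with brain libraries in blue, tumor libraries in red and a grey line between the group means. Points right of 0 have more of the general form. The groups separate in 46 pairs and overlap in 2, and the pairs described in the text are labelled.

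Membrane traffic gave the widest exchange among genes that are not uncertain. Snap25, the SNARE protein of the presynaptic membrane, read 1040, 498 and 898 FPKM in brain and 5.34, 2.90 and 2.88 FPKM in tumor. Snap23, its counterpart in most other cells, read 3.83, 4.41 and 5.12 FPKM in brain and 11.2, 11 and 11.3 FPKM in tumor (1.16, called higher by limma). The ratio therefore shifted by 8.57, although most of that came from the brain form. Napa, which helps take SNARE complexes apart, and Map4, a microtubule protein of many cells, were themselves lower, so there the general form fell less than the brain form. Dnm2, the general dynamin, was listed at 0 in brain 3 but at 16 and 17.3 FPKM in brain 1 and 2, and its pair with Dnm1 shifted by 5.62 with an SD of 2.40 among brains.

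Enzymes of glucose use changed isoform while the pathway stayed near the background. Of 26 glycolysis genes 8 were higher and 9 lower, and the median of 0.18 turned to -0.04 under median-of-ratios scaling. Within it, Eno2, the neuronal enolase, fell from 290, 265 and 228 FPKM to 5.55, 8.06 and 5.71 FPKM, while Eno1, the enolase of most tissues and uncertain here, rose from 240 to 248 FPKM to 467 to 707 FPKM, a shift of 6.33. The call of Eno1 (1.18) was lost under quantile normalization (0.49, limma adjusted p 0.09). Hk2, the hexokinase of muscle and many tumors, rose from 1.72, 1.28 and 0.822 FPKM to 11.1, 13.7 and 10.5 FPKM. Hk1, the brain hexokinase (uncertain), fell from 64.4, 67.2 and 44.4 FPKM to 18.6, 17.4 and 18.6 FPKM but stayed the more abundant of the pair in every tumor.

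Lactate handling showed a full crossing. Slc16a7, the lactate importer MCT2 of neurons, read 3.27, 3.13 and 4.74 FPKM in brain and 0.245, 0.134 and 0.192 FPKM in tumor. Slc16a3, the exporter MCT4 of glycolytic cells, read 1.53, 1.30 and 0.553 FPKM in brain and 36.9, 33.6 and 36.3 FPKM in tumor (4.13, limma adjusted p 1.6e-05). The ratio shifted by 6.11, or by 8.67 with 0.1 in place of 1 added, since Slc16a7 lies below 1 FPKM in every tumor. Slc2a1, the glucose transporter GLUT1 (uncertain), rose by 2.80 while the neuronal transporter Slc2a3 was not called.

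Transporters and pumps of ions followed the same pattern. Slc12a5, the chloride exporter KCC2 that makes GABA inhibitory, read 63.4, 96.5 and 45.5 FPKM in brain and 5, 1.32 and 0.659 FPKM in tumor. Slc12a2, the importer NKCC1, was not called (12.4, 9.59 and 13.7 against 13.1, 17.4 and 14.5 FPKM). Atp6v1g2, the neuronal G subunit of the proton pump of vesicles, fell by 5.11, and 12 of 17 V-ATPase genes were lower with it. Atp6v0e was the exception, rising from 5.79, 4.08 and 3.57 FPKM to 49.7, 57.6 and 57.8 FPKM (3.37).

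Cytoskeletal and nuclear pairs held clear exchanges. Tubb4a, a beta tubulin of myelin and neurons, fell from 465, 340 and 284 FPKM to 39.4, 37.3 and 23.7 FPKM, and Tubb6, a beta tubulin of non-neural cells, rose from 2.50, 11.7 and 8.07 FPKM to 98.8, 118 and 109 FPKM. Wasf1 and Wasf2, which drive actin branching, shifted by 5.05, with Wasf2 at 3.99, 4.36 and 3.23 FPKM in brain and 20.4, 21.3 and 21.2 FPKM in tumor. Ptbp2 and Ptbp1 repress splicing in neurons and in other cells, and their ratio shifted by 3.91, mostly through the uncertain Ptbp1, which rose from 9.03, 6.71 and 7.73 FPKM to 83.4, 69.1 and 65.9 FPKM. Actl6b, the neuronal subunit of the BAF chromatin remodeler, read 42.9, 51.5 and 33.2 FPKM in brain and was listed at 0 in tumor, and its progenitor form Actl6a (uncertain) rose by 1.70. The translation factor pair Eef1a2 and Eef1a1 gave the widest shift of all, 8.88, but Eef1a1 has near-identical copies and is uncertain.

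Most lists of cell division genes were mainly higher, to differing degrees. Of 42 genes of the mitotic spindle and checkpoint 41 were higher, with a median of 3.63 and a summed level of 25.8 to 42.4 FPKM in brain and 764 to 1122 FPKM in tumor. The member not called was Kif22, with 24.9, 24.1 and 0 FPKM in tumor 1 to 3, which was called without tumor 3 (3.87). Cdca8, a subunit of the chromosomal passenger complex, was listed at 0 in brain 1 and 2 and read 0.68 FPKM in brain 3 and 45.1, 29.7 and 35.6 FPKM in tumor. Plk1, the kinase that drives mitotic entry, read 1.75, 0.685 and 0.958 FPKM in brain and 54.5, 30.9 and 38.8 FPKM in tumor. Cdk1 and Ccnb2, a cyclin-dependent kinase and its B cyclin, read 26.5, 17.3 and 24.3 FPKM and 38.9, 24.5 and 28.9 FPKM in tumor, against at most 0.149 and 1.64 FPKM in brain. In all 4, tumor 1 was highest and tumor 2 lowest.

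Such genes are known to share promoter letters, the CCAAT box, bound by the activator NF-Y, and the cell cycle homology region TTTGAA, through which they are silenced outside division. RefSeq promoters on GRCm38.p6, from 250 bases before to 50 bases after the start, were found for 35 of the 42 genes and searched on both strands. TTTGAA was present in 27 of the 35 (77.1%) and in 15.6% of 16522 promoters of the same length, and CCAAT in 24 (68.6%) against 38.77%. With only the 200 bases before the start, TTTGAA was present in 28.6% against 10.5%, and CCAAT in 65.7% against 31.76%. A match is a description of these letters and not a shown binding site. The promoters of Plk1 (chr7:122159185-122159484, plus strand), Cdk1 (chr10:69352863-69353162, minus strand) and Ccnb2 (chr9:70421505-70421804, minus strand) are shown because these 3 genes carry both motifs, with 2, 5 and 5 matches. Capitals mark TTTGAA and CCAAT or their reverse complements, none of which overlap here.
Plk1: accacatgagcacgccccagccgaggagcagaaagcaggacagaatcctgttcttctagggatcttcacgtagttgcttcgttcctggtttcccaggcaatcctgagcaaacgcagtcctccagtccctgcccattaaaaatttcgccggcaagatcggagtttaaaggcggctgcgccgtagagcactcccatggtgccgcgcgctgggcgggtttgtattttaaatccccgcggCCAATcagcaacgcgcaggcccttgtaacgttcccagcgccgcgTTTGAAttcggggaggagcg
Cdk1: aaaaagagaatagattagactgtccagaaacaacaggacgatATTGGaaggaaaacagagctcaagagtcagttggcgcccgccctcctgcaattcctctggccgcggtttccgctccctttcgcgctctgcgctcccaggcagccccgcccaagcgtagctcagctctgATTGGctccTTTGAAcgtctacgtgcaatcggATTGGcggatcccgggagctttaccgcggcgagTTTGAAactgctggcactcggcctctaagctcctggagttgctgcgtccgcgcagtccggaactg
Ccnb2: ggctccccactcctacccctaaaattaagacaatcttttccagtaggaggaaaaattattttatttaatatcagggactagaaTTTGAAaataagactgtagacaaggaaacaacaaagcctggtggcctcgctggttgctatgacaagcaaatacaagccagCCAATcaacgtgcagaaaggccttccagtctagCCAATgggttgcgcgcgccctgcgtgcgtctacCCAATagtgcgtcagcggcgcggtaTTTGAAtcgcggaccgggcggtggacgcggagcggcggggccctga

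Replication rose beside mitosis. Replication fork genes were higher for 25 of 28 and lower for 1, the uncertain Rfc4, and all 9 MCM helicase genes were higher. CENP genes of the centromere were higher for 16 of 20. GINS and ORC genes, which start replication, were higher for 6 of 10 and lower for 1, and higher for 2 of 10 with the unweighted sum. Fanconi anemia genes of crosslink repair were higher for 6 of 10, but for 3 without tumor 3 or under median-of-ratios scaling and for 0 with the unweighted sum. Mcm3, a helicase subunit, read 0.654, 0 and 1.01 FPKM in brain and 55.4, 29 and 50.3 FPKM in tumor (4.89). Cdt1, which loads that helicase, read 29.3, 23.3 and 27.8 FPKM in tumor and at most 0.584 FPKM in brain. Nucleotide synthesis was higher for 22 of 27, led by Rrm2 of ribonucleotide reductase (2.28, 0 and 1.12 against 46.4, 21.2 and 26.3 FPKM). With the unweighted sum, 5 of 9 MCM, 10 of 27 nucleotide synthesis and 8 of 16 condensin and cohesin genes were called higher, in place of 9, 22 and 15. The E2F letters TTTCCCGC were present in 4 of 22 replication fork promoters (18.2%, 1.51% of all promoters) and TTTGGCGC in 3 (13.6%, 0.69%). In the 200 bases before the start each was present in 1 promoter (4.5%).

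Histone cluster genes were poorly covered. Of 67 members 16 were tested, 3 were higher and 2 lower, and their median was -0.19. Of the 16 tested, 13 are uncertain, through overlap, joining or near-identical copies. Whether histone genes rose with replication can therefore not be read from these values.

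Several lists of protein production genes were higher more often than the background. Mitochondrial ribosomal proteins were not far from it in their higher share, with 30 of 78 (38.5%), 17 under median-of-ratios scaling and 12 with the unweighted sum. Their lower share was well below it, with 2 of 78 (2.56%, against 29.1% over all genes), or 6 under median-of-ratios scaling. Their median was 0.56, or 0.31 under that scaling. Ribosome biogenesis genes were higher for 26 of 32 and lower for none, and translation initiation factors for 38 of 52. Ddx21, a helicase of the nucleolus, rose from 6.37, 4.63 and 5.85 FPKM to 67.5, 70.6 and 70 FPKM. Eif4ebp1, the brake on cap-dependent translation that mTOR releases, rose from 2.28, 1.61 and 1.16 FPKM to 58.2, 50.5 and 51 FPKM (4.36, limma adjusted p 1.0e-05), the largest rise of that list among genes that are not uncertain. Eif1b and Eif4g3 were among the 4 lower members (-1.93 and -0.82). The chaperonin CCT, which folds actin and tubulin, was higher for 6 of 7 and the proteasome for 20 of 37. With the unweighted sum, 12 of the 32 ribosome biogenesis genes were called higher.

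Respiration did not follow. Of 46 complex I genes 5 were higher and 5 lower, of 23 cytochrome oxidase and bc1 genes 3 were higher and 1 lower, and of 17 ATP synthase genes 2 were higher and 1 lower, all below the background shares. These subunits are abundant, with sums of 1745 to 3377 FPKM in brain and 2715 to 3714 FPKM in tumor for complex I. The complex I median of 0.15 turned to -0.10 under median-of-ratios scaling, with 10 genes then lower, so no direction is given, and without tumor 3 the counts were 2 higher and 4 lower. ATP synthase did the same, from 0.14 to -0.12, and the oxidase and bc1 genes then had 2 higher and 5 lower with a median of -0.26. The TCA cycle had 5 higher and 8 lower of 23, or 2 and 10 under median-of-ratios scaling. These shares of 21.7% and 34.8% stand beside 33.6% and 29.1% over all genes. Idh2, the mitochondrial isocitrate dehydrogenase that makes NADPH, rose by 1.49. Sdha, the catalytic subunit of succinate dehydrogenase, fell by 2.09 from 95.5, 106 and 82.5 FPKM to 22.4, 20.7 and 21.2 FPKM. The pentose phosphate pathway, which makes ribose and NADPH, was higher for 5 of 7 and lower for none, and for 3 of 7 with the unweighted sum. G6pdx, its first enzyme, was listed at 0 in brain 1 and at 11 and 8.57 FPKM in brain 2 and 3, and its fold change of 3.19 had an SE of 0.92 (limma adjusted p 0.021), and the call was lost without tumor 1, 2 or 3 (3.3, 3.05 and 3.22) and with 0.1 in place of 1 added to the value (4.35, limma adjusted p 0.089). Pgd, the next NADPH step, rose from 12.1, 11.8 and 9.96 FPKM to 38.8, 39.2 and 39.1 FPKM.

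Genes of glioma and of cell cycle control were read next. Cdkn2a (GENCODE M21 on mm10, chr4:89274471-89294653), which encodes the inhibitors p16 and p19Arf, was listed at 0 in brain 1 and 2 and at 0.99 FPKM in brain 3, and read 76.1, 76 and 93.7 FPKM in tumor (6.04, SE 0.30, limma adjusted p 1.3e-05). Trp53, the p53 tumor suppressor, rose from 7.41, 10.3 and 8.06 FPKM to 62.2, 51.3 and 61.2 FPKM (2.63, limma adjusted p 3.9e-05). As background, GL261 is known to carry mutations of Trp53, which these values do not show. Nf1, which restrains RAS, was not called (0.06) but was lower with the unweighted sum (-1.44). Pdgfra, a growth factor receptor of oligodendrocyte precursors, fell by 0.59, a call lost without brain 1, tumor 2 or tumor 3 (-0.50, -0.53 and -0.58). Egfr was below the level tested, with 1.06, 0.84 and 1.14 FPKM in brain and a listing at 0 in tumor.

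Inhibitors rose alongside the cycle itself. Of 7 CDK inhibitor genes 5 were higher and 2 lower, with Cdkn1a, the p21 target of p53, at 6.68, 6.23 and 3.38 FPKM in brain and 57.5, 92.9 and 67.1 FPKM in tumor. Known p53 targets were higher for 13 of 22 and lower for 6, and with the unweighted sum for 5 of 22. The MYC genes were exchanged: Myc rose from 1.71, 1.94 and 2.03 FPKM to 59.7, 66.4 and 79.9 FPKM (4.58), while Mycn fell from 3.65, 3.17 and 2.18 FPKM to a listing at 0 and Mycl fell by 1.33. Genes known to follow RAS and ERK were higher for 13 of 20, among them Emp1 (0.751, 0.617 and 1.18 against 58.9, 67.2 and 32.9 FPKM) and the feedback phosphatase Dusp6 (12, 9.88 and 9.38 against 98.4, 91 and 96 FPKM). Genes known to follow YAP and TEAD were higher for 13 of 18, among them the receptor kinase Axl (8.48, 7.80 and 9.01 against 163, 173 and 187 FPKM), though Ccn2, a common readout of that pathway, was not called (-0.55, uncertain). The unweighted sum called 8 of the 18 higher.

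**Figure D3:**
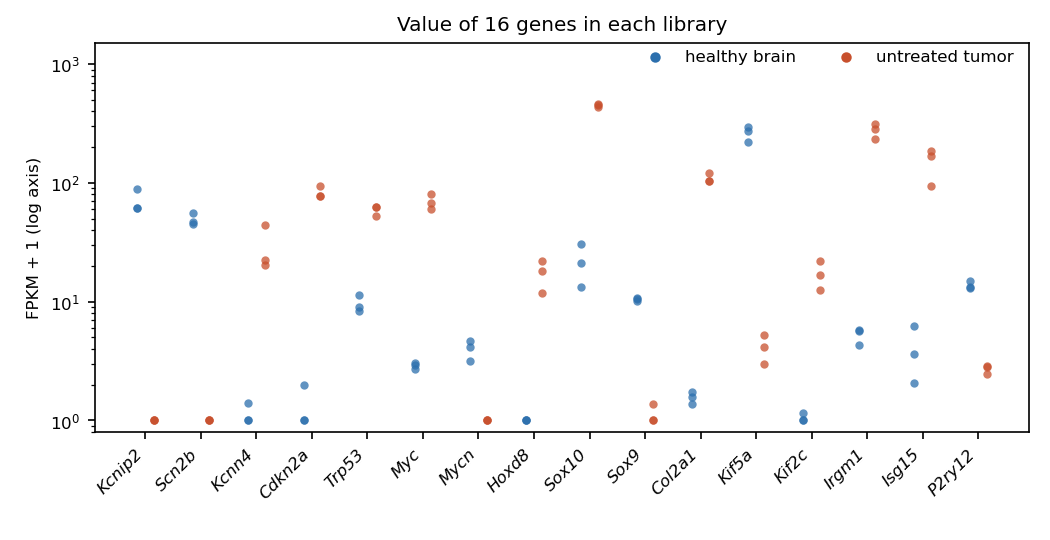
FPKM + 1 of 16 genes in each of the 3 healthy brain (blue) and 3 untreated tumor (red) libraries on a log axis, where a value of 1 means listed at 0. Myc and Mycn, Sox10 and Sox9, and Kif2c and Kif5a move in opposite directions within their families. The groups overlap for none of the 16 genes, which were picked from those described in the text. Over all genes tested, 70% show no overlap.

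Sox transcription factors went both ways, with 4 of 14 higher and 5 lower, near the background shares. Sox10, which specifies the oligodendrocyte lineage, rose from 29.4, 20.1 and 12.3 FPKM to 437, 453 and 461 FPKM (4.46), and Sox6 and Sox2 rose with it. Sox9, the astrocyte member, fell from 9.55, 9.77 and 9.23 FPKM to 0.382, 0 and 0 FPKM (-3.24), and Sox5 and Sox1 fell too. Of 39 Hox genes, which pattern the trunk and are silent in the forebrain, 6 were tested, and all 6 were listed at 0 in every brain and read above 0 in every tumor. With brain at 0, they passed the filter of a mean of 1 FPKM only through the tumors, so their shared direction was set by that filter. Hoxd8 (chr2:74704615-74707933) read 10.9, 17 and 21.1 FPKM and Hoxa10 2.61, 3.97 and 2.13 FPKM in tumor 1 to 3, and the other 4 are uncertain. Forebrain and neuronal factors were lower for 18 of 22, with Tbr1 of deep cortical neurons at 21.9, 21.9 and 23.8 FPKM in brain and listed at 0 in tumor.

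The AP-1 family was higher for 11 of 15 and lower for none. Batf2, an interferon-induced member, was listed at 0 in brain and read 26.2, 27.1 and 41.1 FPKM in tumor. Of 12 immediate early genes, which stimuli switch on within minutes, 6 were higher and 4 lower. Fos rose from 4.36, 2.59 and 3.35 FPKM to 37.9, 95.3 and 66.9 FPKM, and Ier2, Junb and Nr4a1 rose with it, whereas Arc, Egr3, Egr4 and Npas4 fell. Neuronal activity is known to induce genes of both groups. Arc read 12.8, 9.74 and 9.25 FPKM in brain and 0.364, 0 and 0 FPKM in tumor, and Egr1 was not called (-0.51).

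Circadian genes were lower for 12 of 18 and higher for 2. Hlf and Tef, output factors of the clock, changed by -5.06 and -2.94, from 39.3, 29.3 and 45 FPKM and from 72.1, 40.7 and 55.6 FPKM. Nfil3, which binds the same sites with the opposite effect, rose from 5.09, 3.07 and 4.29 FPKM to 25.3, 24.3 and 26.3 FPKM (2.37). Clock and Per1 were not called. The labels give no hour of collection. With the unweighted sum 5 of the 18 genes were called lower.

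**Figure D4:**
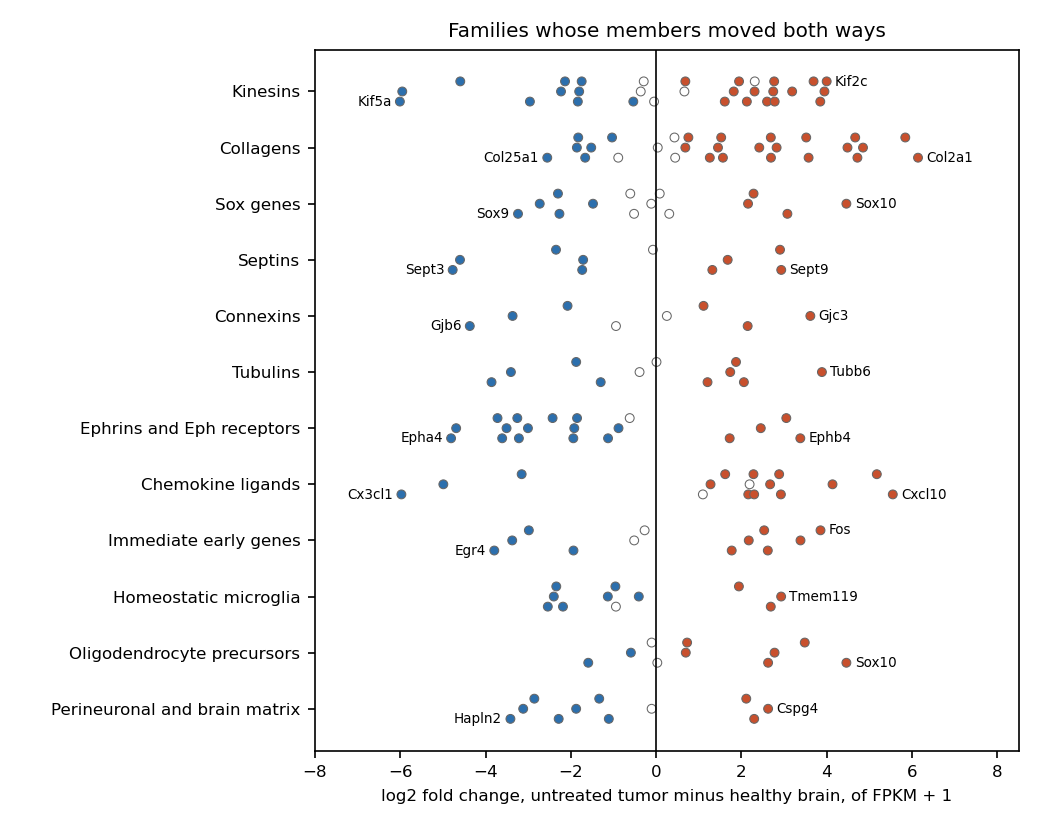
Fold change of each tested member of 12 families, tumor minus brain on the scale of log2(FPKM + 1), with members called higher in red, called lower in blue and not called in white. Members at the ends are named where the text describes them. Kinesins run from Kif5a at -6.01 to Kif2c at 4.0 and collagens from Col25a1 at -2.55 to Col2a1 at 6.14.

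Kinesins, motors that walk along microtubules, went both ways. Of 30 tested, 15 were higher and 10 lower. Kif5a, Kif1a and Kif5c, motors of axonal transport, fell (-6.01, -5.95 and -4.59), and Kif5a went from 292, 272 and 219 FPKM to 4.29, 3.16 and 1.99 FPKM. Kif2c, Kif18b and Kif23, which act in the mitotic spindle and in cell separation, rose by 4.0, 3.95 and 3.85, and Kif18b was listed at 0 in every brain. With the unweighted sum 9 kinesins were called higher. Septins, filament proteins of cell cortex and synapse, ran from Sept3 of nerve terminals (-4.77) to Sept9 of dividing and migrating cells (2.94).

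The interferon program was the other set that rose almost whole. Of 29 interferon response genes 28 were higher, with a median of 4.15 and a summed level of 60.8 to 79.2 FPKM in brain and 1562 to 1852 FPKM in tumor, and Ifi27 was the member not called (0.09). Isg15, a ubiquitin-like protein of the antiviral state, read 2.64, 5.24 and 1.09 FPKM in brain and 184, 168 and 93.3 FPKM in tumor (5.31, limma adjusted p 9.3e-05). Cxcl10, a chemokine that attracts T cells, was listed at 0 in brain 1 and 2 and read 0.627 FPKM in brain 3 and 68.9, 38.7 and 59.4 FPKM in tumor (5.55). Ifit3, which is uncertain, read 4.77, 4.75 and 6.43 FPKM in brain and 61.0, 69.6 and 48.9 FPKM in tumor. Groups did not overlap for any of the 3.

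Their known control element, the interferon-stimulated response element, holds the letters GAAA, any 2 bases and GAAA again. Promoters were found for 22 of the 30 members of the list, and 13 of them (59.1%) held these letters on either strand, against 3.47% of all 16522 promoters of that length. In the 200 bases before the start the shares were 36.4% and 2.34%. The promoters of Ifit3 (chr19:34583279-34583578, plus strand), Isg15 (chr4:156200769-156201068, minus strand) and Cxcl10 (chr5:92348840-92349139, minus strand) are shown as members with 2, 3 and 1 matches. Capitals mark these letters or their reverse complement, and the 3 matches in Isg15 overlap into a single run of capitals.
Ifit3: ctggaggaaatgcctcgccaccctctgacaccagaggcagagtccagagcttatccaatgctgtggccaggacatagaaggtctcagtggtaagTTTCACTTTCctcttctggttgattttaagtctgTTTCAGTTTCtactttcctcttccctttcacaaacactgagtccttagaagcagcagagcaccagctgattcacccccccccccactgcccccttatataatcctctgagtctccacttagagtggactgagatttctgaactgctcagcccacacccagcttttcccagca
Isg15: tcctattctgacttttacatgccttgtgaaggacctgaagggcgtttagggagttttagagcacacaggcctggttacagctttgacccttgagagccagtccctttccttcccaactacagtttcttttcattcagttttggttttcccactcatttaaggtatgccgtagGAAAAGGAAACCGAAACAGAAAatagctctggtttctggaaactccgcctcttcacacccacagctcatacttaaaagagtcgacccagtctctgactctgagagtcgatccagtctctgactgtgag
Cxcl10: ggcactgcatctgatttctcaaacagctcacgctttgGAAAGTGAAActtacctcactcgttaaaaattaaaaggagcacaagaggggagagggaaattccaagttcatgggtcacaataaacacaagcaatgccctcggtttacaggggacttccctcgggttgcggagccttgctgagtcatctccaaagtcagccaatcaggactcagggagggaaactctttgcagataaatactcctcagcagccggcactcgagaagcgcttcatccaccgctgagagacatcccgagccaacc

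Effector families of this program were mostly higher too. The GBP and IRG GTPases, which attack vacuoles that hold pathogens, were higher for 14 of 15, from a summed 12 to 23 FPKM to 1013 to 1278 FPKM. Irgm1, a regulator of that family, read 4.78, 3.32 and 4.61 FPKM in brain and 309, 285 and 234 FPKM in tumor (5.73, limma adjusted p 6.3e-06). Oas and Ifit genes were higher for 14 of 17 and lower for 2, the uncertain Ifitm7 and Ifitm10 (-3.16 and -2.02). Oas3, a sensor of double-stranded RNA, was listed at 0 in brain and read 19.6, 18.5 and 19 FPKM in tumor. Of 14 Stat and Irf genes, the factors that carry the signal, 12 were higher and none lower, with Irf7 at 1.26, 1.41 and 1.12 FPKM in brain and 45.4, 44.8 and 37.9 FPKM in tumor and Stat3 at 4.6, 5.77 and 5.46 against 45.2, 52.6 and 42.6 FPKM.

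Antigen presentation genes rose, with 18 of 18 class I and 10 of 10 tested class II pathway genes higher. The class II list has 12 members, and 4 of the 10 tested are uncertain. Without tumor 3, 9 of the class II genes were higher, and with the unweighted sum 8. Of the class I genes 13 are uncertain, through overlap, joining or near-identical copies. Nlrc5, the class I activator, is not, and it read 0, 0 and 0.126 FPKM in brain and 14.5, 13.7 and 22.1 FPKM in tumor. A single short motif, taken as part of the element known to control class II genes, was searched in 8 class II promoters. It was not found in the window, and 0.47% of all promoters hold it. Other parts of that element were not searched, so its absence is not shown.

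Innate receptors rose from low levels. Of 12 Toll-like receptors, sensors of microbial products, only Tlr2, Tlr3, Tlr4 and Tlr13 were tested. All 4 were higher, by 1.80, 1.57, 1.88 and 1.40, with none above 8.87 FPKM in a tumor. They summed to 1.51 to 3.52 FPKM in brain and 14.9 to 16.8 FPKM in tumor. They thus passed the filter of a mean of 1 FPKM mostly through the tumors, which largely set their shared direction. The unweighted sum called 2 of the 4. Of 6 Fc receptor genes 5 were higher, led by Fcgr4 (listed at 0 in brain, 19.6, 6.19 and 18.6 FPKM in tumor), and Fcgrt, which recycles antibody rather than signaling, fell by 1.06. Complement genes were higher for 13 of 18 and lower for 2. Cfd, the protease of the alternative pathway, was listed at 0 in brain and read 7.23, 8.90 and 13.9 FPKM in tumor.

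Chemokine ligands went both ways. Of 16 tested 11 were higher and 3 lower. Ccl5, which attracts T cells and monocytes, was listed at 0 in brain and read 41.7, 24.4 and 42.6 FPKM in tumor, and Ccl8 32.4, 4.93 and 26.5 FPKM. The 3 lower ligands are made by healthy brain cells: Cx3cl1, the neuronal ligand that holds microglia, fell from 189, 155 and 94.6 FPKM to 2.10, 1.06 and 0.783 FPKM (-5.97), Cxcl14 fell by 4.99 and Cxcl12 fell from 7.60, 7.72 and 8.38 FPKM to a listing at 0. The receptor Cx3cr1 of microglia was not called (-0.94) but was under median-of-ratios scaling (-1.17) and without tumor 1 (-1.30), and the microglial purine receptor P2ry12 fell from 12.3, 12 and 14 FPKM to 1.87, 1.84 and 1.47 FPKM. Tmem119, often used as a microglial marker, was higher and uneven (13.6, 12.6 and 8.44 against 52.8, 94 and 162 FPKM), and which cells express it was not measured.

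Matrix genes went both ways as well. Of 28 collagens 18 were higher and 6 lower. Col2a1, Col9a1 and Col11a1, fibrillar and associated collagens of cartilage, led the rise: Col2a1 read 0.731, 0.374 and 0.564 FPKM in brain and 102, 121 and 104 FPKM in tumor (6.14, limma adjusted p 6.3e-06). The lower members included Col25a1, a transmembrane collagen of neurons (3.44, 5.87 and 5.61 FPKM in brain, listed at 0 in tumor), and the microfibril gene Col6a1. Among 11 genes of the perineuronal and brain matrix 7 were lower, among them the link proteins Hapln2 and Hapln4 (35.8, 17.3 and 22.4 against 2.31, 2.75 and 2.36 FPKM for Hapln4). The proteoglycans Cspg4 and Vcan rose, by 2.63 and 2.11. Mesenchymal matrix genes were higher for 19 of 21, and Dcn, a small proteoglycan of fibroblasts, was lower (2.84, 5.30 and 4.91 against 0.899, 0 and 0 FPKM). With the unweighted sum 10 collagens and 12 mesenchymal matrix genes were called higher.

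At the cell surface, 14 of 22 integrin genes were higher and 3 lower, with Itgb1, the most shared beta chain, at 12, 9.58 and 12.4 FPKM in brain and 129, 128 and 99 FPKM in tumor. The unweighted sum called 5 of them higher. Annexins, which bind membranes in response to calcium, were higher for 5 of 9, led by Anxa1 (0.832, 1.32 and 0.852 against 154, 142 and 110 FPKM). Galectins, lectins that bind galactosides, were higher for 6 of 7, and Lgals3 was uneven in tumor at 159, 41.1 and 175 FPKM. Of 8 connexins of gap junctions 3 were higher and 3 lower, near the background shares. The astrocyte member Gjb6 fell from 21.9, 15.6 and 22.1 FPKM to a listing at 0. Gjc3 rose from 11.4, 9.91 and 13.3 FPKM to 150, 168 and 139 FPKM.

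The 3 tumors were not alike, and they differed by whole lists. Over the 5082 genes higher in tumor, the lowest tumor value fell in tumor 1, 2 and 3 for 30.2%, 35.1% and 34.7% of genes and the highest for 39%, 31.1% and 30%. Of the 41 higher mitotic genes 37 were lowest in tumor 2 and 38 highest in tumor 1, and of the 25 higher replication fork genes 21 were lowest in tumor 2 and 22 highest in tumor 1. Tumor 2 was also lowest for 12 of 13 complement genes, 10 of 11 chemokine ligands and 9 of 10 class II genes called higher, and the 3 lists summed to 354, 102 and 733 FPKM there. In tumor 3 these sums were 756, 203 and 1908 FPKM. AP-1 and bZIP genes had another order, with 8 of 11 lowest in tumor 1, and the partly shared immediate early list moved with them, with 5 of 6 higher genes lowest there and sums of 261, 476 and 409.8 FPKM in tumor 1 to 3. These genes share 3 libraries, so the counts describe the libraries and carry no test.

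**Figure D5:**
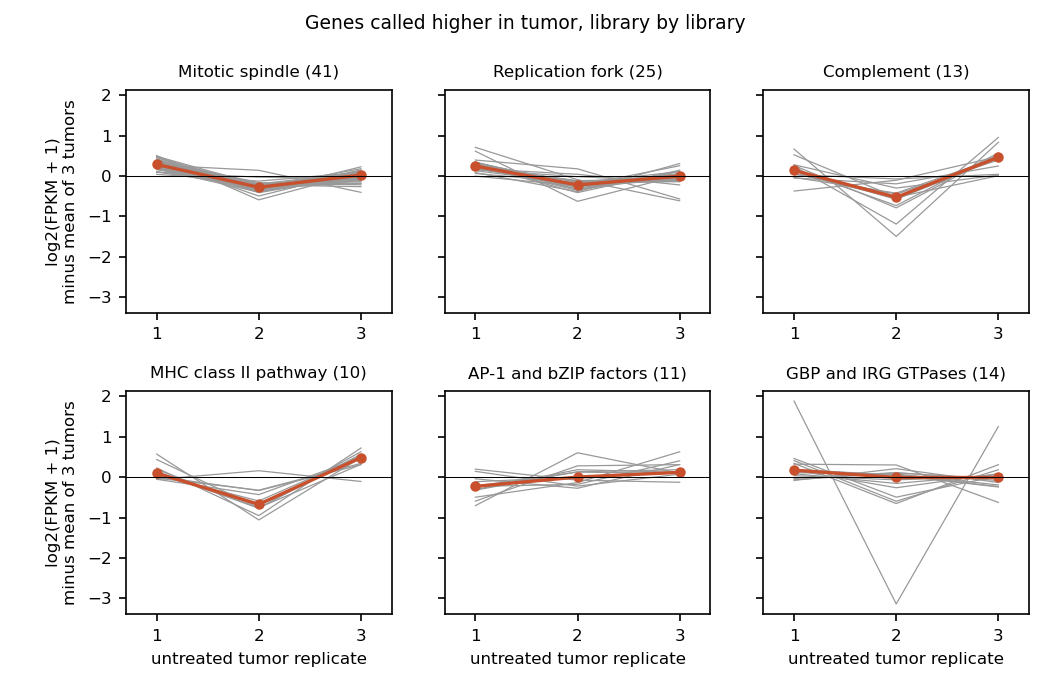
Level of each gene called higher (grey lines) in untreated tumor 1 to 3, as log2(FPKM + 1) minus the mean of the 3 tumors, for 6 lists with the number of genes in brackets and the median in red. Mitotic spindle and replication genes are high in tumor 1 and low in tumor 2, complement and class II genes are low in tumor 2 and high in tumor 3, and AP-1 and bZIP genes are low in tumor 1.

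Marker lists moved with these orders. Monocyte and macrophage markers summed to 321, 213 and 418 FPKM in tumor 1 to 3, the same order as complement and class II genes, and T and NK markers to 23.6, 25.8 and 37.6 FPKM. Hemoglobin genes, uncertain for their copies, summed to 80.1, 65.3 and 232 FPKM, so tumor 3 held the most. Neuron markers summed highest in tumor 1 (72.8 FPKM against 47.3 and 48.6 FPKM). Of these sums Tubb3 alone gave 34.7, 18.8 and 24.2 FPKM in tumor 1 to 3, and which cells express it was not measured. The part these marker lists play in the order was not tested. Without tumor 3, the library with the disagreeing agent tag, 4449 genes were higher and 4056 lower. Of the 119 families and lists with at least 5 tested genes 53 then kept the same counts, and a count of 5 or more moved by over 1.5 times in 4. Genes higher went from 6 to 3 of 10 Fanconi anemia genes, from 5 to 2 of 46 complex I subunits, from 5 to 2 of 9 C-type lectins and from 7 to 4 of 19 cholesterol synthesis genes.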

How the data were processed

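Values came from 3 untreated tumor and 3 healthy brain libraries. Per the labels, each deposited file lists assembled transcripts with the FPKM the authors computed. The submitters' processing notes name STAR, Cufflinks and mm10, and versions are not given in the sources used here. Other units were not used.

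From these, a gene value was computed over the transcripts that overlap its mm10 GENCODE M21 basic exons, as the sum of FPKM times the share of exonic length covered, without regard to strand. Single-exon transcripts under 200 bases were left out. Of 55450 annotated genes 32598 were used. A gene was marked uncertain where another gene covers at least 10% of its exons, where at least 50% of its value comes from transcripts that also cover 100 bases or more of another gene, or where at least 20% of its 31-base words recur in another gene. limma 3.58.1 in R 4.3.3 was fitted to log2(value + 1) of the 6 libraries for genes with a mean of at least 1 FPKM, with Benjamini-Hochberg adjusted p-values, and was tested on simulated data. Depth was estimated from the deposited values and sets the precision of low genes. The remaining steps used Python 3.11.15, numpy 2.4.6, pandas 2.3.3, scipy 1.17.1 and matplotlib 3.10.9.

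The comparison, gene families, lists, pairs and motifs were chosen with earlier results of these data known. In each list the up to 3 largest rises and falls among called genes that are not uncertain are eligible to be named, with every member called against a majority of at least 3 in 4, all pair genes, all members of lists with 5 or fewer tested genes, and the glioma genes Cdkn2a, Trp53, Nf1, Egfr and Pdgfra. Ttr, Tbr1, Nr4a1, Npas4, Col11a1, Cx3cr1, Egr1, Ccn2, Clock, Per1, the last members of short counts and the genes with printed promoters were named after their values were seen. Alternatives covered the gene value, filter, pseudocount, scaling, annotation, libraries and replicate block. Some genes and pairs eligible to be named are not reported here.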

Additional observations from a re-analysis of the deposited data

How the results depend on the processing

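Of the settings tried, the unweighted sum of FPKM moved the counts of higher genes and lists the most: 2906 genes were called higher in place of 5082, and 7 in place of 23 lists of 5 or more tested genes had at least 3 in 4 members higher. It called 6561 genes, 5563 of them also called with the weighted value. A mean of at least 5 FPKM left 2766 genes lower in place of 4405, with fewer genes tested. Under median-of-ratios scaling 4176 were higher and 5147 lower. Leaving out each library in turn gave 4404 to 5030 genes higher, 3957 to 4466 lower and 46 to 48 pairs without overlap. With only 200 bases before the start, TTTGAA was in 28.6% of mitotic promoters and TTTCCCGC in 4.5% of replication fork promoters, a shorter window. Nf1 turned from 0.06 to -1.44 with the unweighted sum, and the cause was not tested. The exons of the full annotation, an alternative chosen after seeing the data, gave 4997 higher and 4395 lower. Replicate numbers did not pair tumor with brain (correlations of deviations -0.0037, 0.0062 and 0.0098), and a replicate block gave 4710 higher and 4205 lower. Genes near 1 FPKM rest on few fragments at these depths.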

Other observations

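Of 38 tested Trim genes, ubiquitin ligases with many roles, 19 were higher and 10 lower. Trim30a, an interferon-induced member, rose from 0.605, 0.640 and 0.756 FPKM in brain 1 to 3 to 21.9, 25.2 and 21.1 FPKM in tumor 1 to 3, and the neuronal Trim9 fell from 28, 27.9 and 27.7 FPKM to 0.305, 0 and 0.0948 FPKM. Caspases, proteases of cell death and inflammation, were higher for 8 of 9, with Casp4 listed at 0 in every brain and at 13.4, 11.2 and 15.7 FPKM in tumor. Of 52 Rab GTPases, which direct vesicles, 8 were higher and 18 lower, or 7 and 24 under median-of-ratios scaling. Rab3c of synaptic vesicles read 34, 50 and 42.5 FPKM in brain and was listed at 0 in tumor, and Rab34, which acts at cilia and the Golgi, rose from 12.1, 11.1 and 9.65 FPKM to 57.4, 60.9 and 46.9 FPKM.

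Of 240 tested solute carriers 78 were higher and 92 lower, near the shares over all genes. The sulfate transporter Slc26a2, which supplies proteoglycan synthesis, rose from 1.25, 1.28 and 1.38 FPKM to 71.8, 67.4 and 74.1 FPKM (4.97, limma adjusted p 6.3e-06). The neurotransmitter transporter family member Slc6a17 fell from 88.6, 76.8 and 69.7 FPKM to 0.504, 0.142 and 0 FPKM (-6.04, limma adjusted p 6.3e-06). The unweighted sum called 34 of the 240 higher. Of 30 metalloproteases 15 were higher and 8 lower: Adam22 and Adam23, synaptic members without protease activity, fell by 4.24 and 4.26, and Adamts14 and Mmp2, which process and cut collagens, rose by 3.92 and 3.6. The unweighted sum called 7 of the 30 higher.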
